A study of Rattus norvegicus with 26 samples.

Results

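The drug metabolism enzymes were examined in the rat dentate gyrus (DG), the part of the hippocampus built around granule neurons, as the genes whose symbols begin with the family names Cyp1 to Cyp4, Gst, Ugt, Sult, Ephx, Nqo, Aldh1a, Ces and Fmo. The symbols matched 66 genes, and the 56 that averaged at least 5 normalized counts over all rats were kept as members, of 15595 genes that passed the same filter and 17910 gene IDs in all. They comprised 21 cytochrome P450 (Cyp), 16 glutathione S-transferase (Gst), 6 sulfotransferase (Sult), 4 flavin monooxygenase (Fmo), 3 epoxide hydrolase (Ephx), 2 quinone reductase (Nqo), 2 retinaldehyde dehydrogenase (Aldh1a), 1 glucuronosyltransferase (Ugt) and 1 carboxylesterase (Ces) gene. Of the 10 matched genes that fell below the filter, 7 were Cyp genes. Among the members, the smallest means belonged to Cyp4v3 and Sult1c2a, and just below the filter lay Cyp2e1, with group means of 5.25 (Veh), 4.39 (Dox) and 5.17 (Dox + ABT), and Cyp2a1, with 4.30, 4.91 and 5.56.

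Drug metabolism proceeds in stages. Phase I enzymes such as the P450s, flavin monooxygenases, aldehyde dehydrogenases, epoxide hydrolases and carboxylesterases oxidize, reduce or hydrolyse a compound, and phase II enzymes attach glutathione, sulfate or glucuronic acid to the product so that it can be carried out of the cell. These genes are best known from the liver. In brain, members of the same families also act on endogenous compounds such as fatty acids, steroids, retinoids and amine transmitters, and several are found mainly in glia, at the blood-brain barrier or in the meninges.

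The samples were 26 male F344 rats aged 6 months at the start of treatment, with the DG of 1 hemisphere and 1 library per rat. The Veh group (n = 10) received vehicle by gavage and, per the study's methods, also belonged to an ongoing study of aging. The Dox group (n = 8) received doxorubicin, an anthracycline cancer drug, at 2 mg/kg by weekly intraperitoneal injection for 4 weeks, and the Dox + ABT group (n = 8) received the same and ABT-263 (navitoclax), an inhibitor of Bcl-2 family proteins used to remove senescent cells, at 12 mg/kg by gavage on 5 consecutive days every other week. All rats were tested for behavior before tissue was taken. The question was how Dox altered transcription in the DG and whether ABT-263 altered that response.

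Values are normalized counts per gene, scaled between libraries by the authors, and levels are compared between rats and not corrected for transcript length. The libraries held an estimated 10200000 to 24300000 reads each, and correlations between libraries ran from 0.941 to 0.987. Granule cell markers were high in each group, with means of 2467 for Prox1 and 980 for Calb1 in Veh. Within groups, the libraries were split into 2 kinds along the first principal component, which held 28.4% of the variance. Each group's mean was subtracted first, so a kind is relative to its group. The counts of kinds per group are therefore no measure of a difference between groups, and the split gives 2 kinds whatever the values. The Veh rats had 4 libraries of the first kind and 6 of the second, the Dox rats 5 and 3, and the Dox + ABT rats 7 and 1. The share of ribosomal protein genes was 0.898% of the counts for the first kind and 1.49% for the second. The kinds were found from the values and carry no label, so results are given within them where they differ.

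The promoters of Sult1a1, Sult5a1 and Aldh1a2, members called in comparisons with Dox and described first, are shown from RefSeq (assembly GRCr8, 250 bases before to 50 bases after the start, 5′ to 3′ on the gene's strand). The deposited values use rn6, so these coordinates apply to GRCr8 alone. Sult1a1 lies at chr1:190706063-190706362 on the minus strand, Sult5a1 at chr19:68112607-68112906 on the minus strand and Aldh1a2 at chr8:80758391-80758690 on the plus strand. Capitals mark the core of the xenobiotic response element bound by the aryl hydrocarbon receptor, GCGTG, and the core of the antioxidant response element bound by Nrf2, TGACNNNGC, each searched on both strands.
Sult1a1: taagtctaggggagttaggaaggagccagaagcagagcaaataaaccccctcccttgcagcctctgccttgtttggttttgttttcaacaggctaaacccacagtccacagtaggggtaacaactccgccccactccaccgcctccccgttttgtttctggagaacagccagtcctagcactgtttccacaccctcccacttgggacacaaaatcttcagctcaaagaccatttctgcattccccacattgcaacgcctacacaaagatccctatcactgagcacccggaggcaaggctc
Sult5a1: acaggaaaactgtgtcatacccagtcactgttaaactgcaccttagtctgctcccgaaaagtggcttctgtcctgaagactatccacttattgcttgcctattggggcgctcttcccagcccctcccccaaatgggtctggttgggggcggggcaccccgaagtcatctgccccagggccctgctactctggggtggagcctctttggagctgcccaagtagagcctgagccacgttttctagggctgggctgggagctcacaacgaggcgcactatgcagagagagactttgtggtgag
Aldh1a2: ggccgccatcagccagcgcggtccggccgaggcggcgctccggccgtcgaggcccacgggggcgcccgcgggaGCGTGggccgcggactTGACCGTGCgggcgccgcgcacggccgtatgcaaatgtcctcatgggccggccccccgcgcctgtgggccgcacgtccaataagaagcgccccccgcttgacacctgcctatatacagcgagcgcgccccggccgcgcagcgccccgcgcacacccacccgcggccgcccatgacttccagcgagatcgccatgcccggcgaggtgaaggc
The Aldh1a2 window held both cores, which do not overlap, and neither core was found in the windows of Sult1a1 and Sult5a1. Promoter entries were at hand for 47 of the 56 members. Counting the first entry of each gene, 20 held GCGTG and 8 held TGACNNNGC, and the second entry of Ephx1 held the latter too. Over all 33469 promoters of this length the cores were in 29.7% and 12.1%. A match is a description of the letters only.

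The members together took 0.143% ± 0.015 (SD, n = 10) of all normalized counts in Veh, 0.143% ± 0.013 (n = 8) in Dox and 0.143% ± 0.005 (n = 8) in Dox + ABT. A few genes made up most of this. Sult4a1, a sulfotransferase found mainly in neurons, had a mean of 6389 ± 1051 normalized counts in Veh and took 92.5% of the Sult sum, and the mu-class glutathione transferases Gstm7 and Gstm1 took 29.1% and 22.5% of the Gst sum. Cyp2d4, a P450 of the Cyp2d subfamily found in rat brain, was the most abundant Cyp gene, with 23.1% of the Cyp sum in Veh. At the other end, Cyp2r1, Cyp3a62, Cyp4b1, Cyp4f39, Cyp4v3, Fmo5 and Sult1c2a had group means under 10 in each group, so that a value rests on few reads.

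Genes were called at an unadjusted limma p under 0.01, with Benjamini-Hochberg adjusted p-values over all 15595 genes beside it. The study used the same threshold with another test, DESeq2. Among genes raised by Dox it reported clusters for glucuronidation and for P450 metabolism of xenobiotics, an analysis that was not repeated here. In Dox against Veh, 2 of 56 members were called (3.57%), against 2.87% of all tested genes: Sult1a1 was higher (1.02% of all genes were called higher) and Aldh1a2 was lower (1.85% called lower). In Dox + ABT against Veh, 4 members were called (7.14%), all lower, against 7.84% of all genes (3.89% higher and 3.95% lower). In Dox + ABT against Dox, 4 members were called (7.14%), 2 in each direction, against 4.03% of all genes (1.71% higher and 2.32% lower). Each of these shares was small and rested on 2 or 4 genes, and no member passed an adjusted p of 0.05 in limma in any of the 3 comparisons. This changed with weights for the quality of each library (limma arrayWeights), where 11, 21 and 3 members passed it, with 3172, 6152 and 667 of all genes, and without Veh rat 11, where 3 did in Dox + ABT against Veh. At an unadjusted p under 0.05, 10, 13 and 7 of the 56 members passed, against 10.2%, 22.5% and 12.7% of all genes. The 3 comparisons share their groups, so they are not independent of each other.

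**Figure D1:**
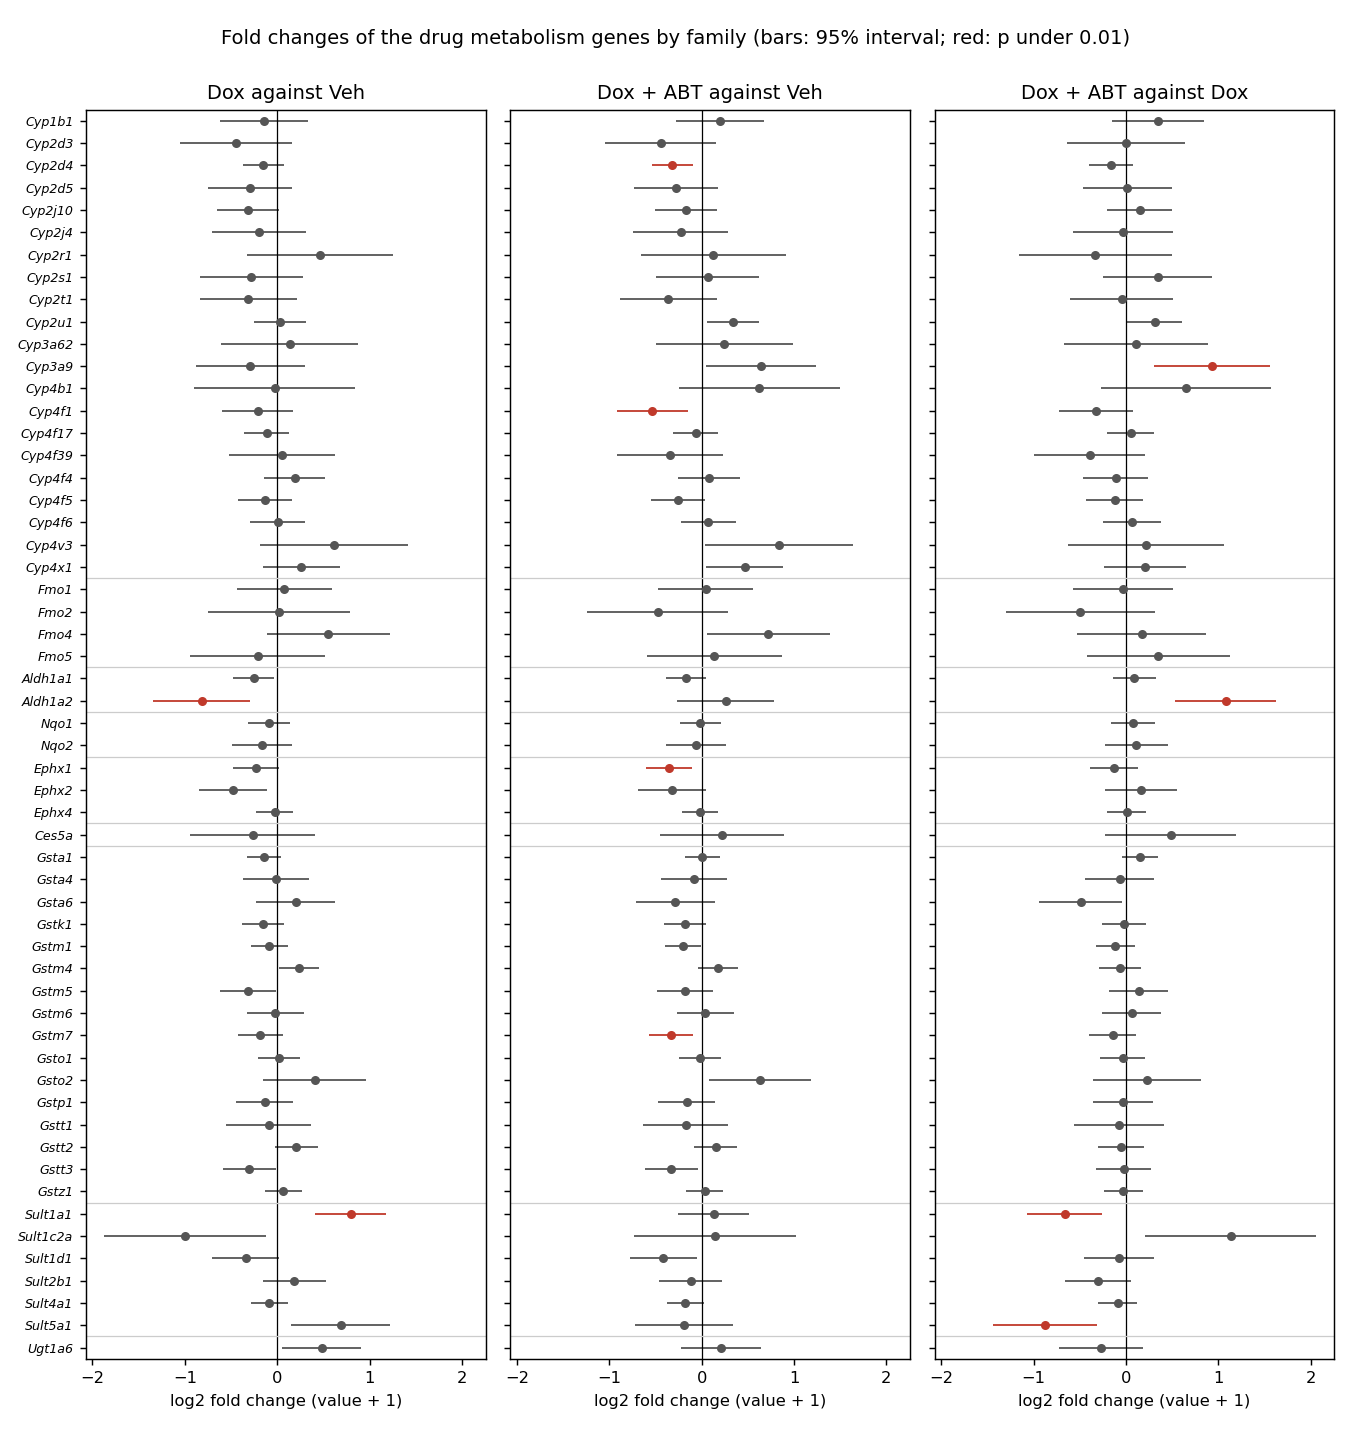
Fold changes of the 56 members on the log2(value + 1) scale in the 3 comparisons, grouped by family from phase I (top) to phase II (bottom); points are limma estimates from 10 Veh, 8 Dox and 8 Dox + ABT rats, bars are 95% intervals and red marks p under 0.01. Sult1a1 and Aldh1a2 are red in the panels of Dox against Veh and of Dox + ABT against Dox, with opposite signs in the 2 panels.

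Sult1a1 (ENSRNOG00000019342), the phenol sulfotransferase that conjugates small phenols including many drugs, was the member with the smallest p in Dox against Veh. Its values ran from 186 to 241 normalized counts in Veh with a median of 215, from 204 to 792 in Dox with a median of 335, and from 206 to 276 in Dox + ABT with a median of 231. Of the 8 Dox rats, 7 lay above all 10 Veh rats, whereas the Dox + ABT range began inside the Veh range and ended above it. The gene rose in Dox against Veh by 0.79 ± 0.19 (SE) on the log2 scale, a 1.73-fold difference (limma p = 0.000232, adjusted p = 0.114). It was lower in Dox + ABT than in Dox by a log2 difference of -0.66 ± 0.20 (limma p = 0.00237, adjusted p = 0.183), and the difference of Dox + ABT from Veh was 0.13 with a 95% interval of -0.25 to 0.52. Markers of blood and liver moved the same way in direction between groups, with none called. All 3 red cell markers were above 0 in Dox against Veh and below 0 in Dox + ABT against Dox, with medians of 1.04 and -1.44, and their sum ran from 1540 to 17770 in Veh, 2415 to 90336 in Dox and 2457 to 8330 in Dox + ABT. Of 3 liver markers, 3 were above 0 in the first comparison and 2 below 0 in the second, and their sum ran from 28.0 to 47.0, 30.9 to 81.7 and 18.5 to 44.2. The part of these markers in the Sult1a1 result was not tested. RNA was extracted from tissue, so a change in the number of cells of a type and a change in RNA per cell cannot be told apart.

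The rise in Dox was seen within both kinds of library, at 0.90 (limma p = 0.00935) in the first and 0.68 (limma p = 7.68e-05) in the second. The difference of Dox + ABT from Dox was -0.65 after adjustment for the kind (limma p = 0.00333) and -0.74 in the first kind alone (limma p = 0.0138), which misses the threshold. The size of the rise depended on 2 rats, also within the first kind. In that kind, Dox rats 9, 10 and 13 had 204, 255 and 248 normalized counts, and the 4 Veh rats had 186 to 223. Dox rats 1 and 2, of the same kind, had 791 and 792, and the other 6 Dox rats had 204 to 399. Without these 2 rats, a choice made after seeing the values, the log2 difference from Veh was 0.43 ± 0.11 (limma p = 0.000813, adjusted p = 0.634) and that of Dox + ABT from Dox was -0.30 ± 0.12 (limma p = 0.0182), which misses the threshold.

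Sult5a1 (ENSRNOG00000015695), another cytosolic sulfotransferase, was also highest in Dox by its median, at a lower level. Its values ran from 20.6 to 70.1 in Veh with a median of 49.9, from 44.0 to 145 in Dox with a median of 62.6, and from 20.9 to 59.0 in Dox + ABT with a median of 40.7. In Dox, 3 of 8 rats lay above all Veh rats, and 6 of 8 Dox + ABT rats lay below all Dox rats. The gene was lower in Dox + ABT than in Dox by a log2 difference of -0.88 ± 0.27 (limma p = 0.00348, adjusted p = 0.187). In Dox against Veh the log2 difference was 0.69 ± 0.26 (limma p = 0.0135), outside the threshold. After adjustment for the kind of library it was 0.77 (limma p = 0.00557), under the threshold, and it was 1.42 in the first kind of library (p = 0.000611) and 0.05 in the second (p = 0.852). Without Dox rats 1 and 2, which had 145 and 109 normalized counts, the difference between Dox + ABT and Dox was -0.60 (limma p = 0.0360), and without Dox rat 1 alone or Dox + ABT rat 6 alone it was -0.73 (p = 0.0113) and -0.76 (p = 0.0105).

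**Figure D2:**
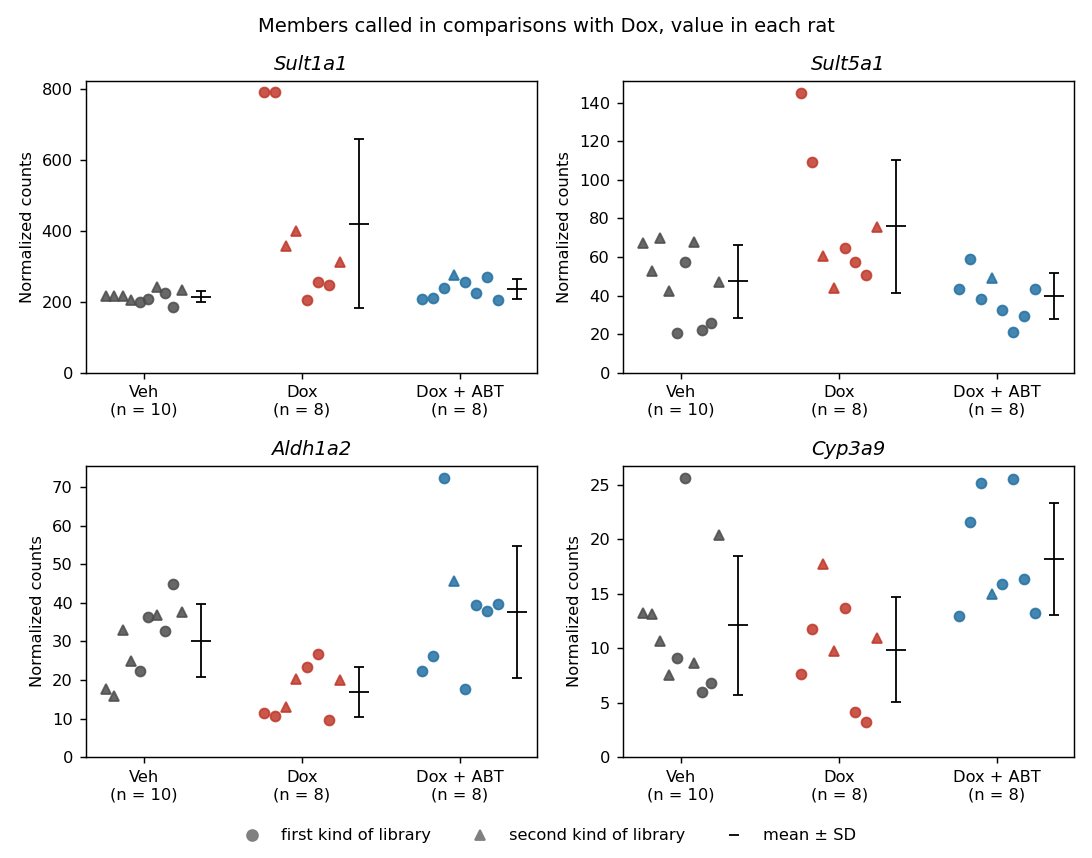
Normalized counts of Sult1a1, Sult5a1, Aldh1a2 and Cyp3a9 in each rat by group; circles and triangles mark the first and second kind of library, and the black bar is the group mean ± SD. Dox rats 1 and 2, drawn first in the Dox group, have the 2 highest values of Sult1a1 and Sult5a1.

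The other 4 sulfotransferases were not called in any comparison in the fit of all rats. Sult4a1 ran from 4525 to 7889 in Veh, 5083 to 7949 in Dox and 5027 to 6751 in Dox + ABT, which overlap over most of their range. Sult2b1, which sulfates cholesterol and other hydroxysteroids, and Sult1d1, which acts on catecholamines in rodents, differed in Dox from Veh by 0.19 and -0.34. Sult1c2a had group means of 6.07 (Veh), 3.39 (Dox) and 7.03 (Dox + ABT), so it passed the filter through the groups in which it is high and its differences are given without a test.

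Aldh1a2 (ENSRNOG00000055049), a retinaldehyde dehydrogenase that makes retinoic acid and is expressed in the meninges, was lower in Dox and higher in Dox + ABT. Its values ran from 15.9 to 44.8 in Veh with a median of 32.8, from 9.65 to 26.7 in Dox with a median of 16.5, and from 17.6 to 72.4 in Dox + ABT with a median of 38.6. All 8 Dox rats lay below the Veh median and 4 lay below all Veh rats, and all 8 Dox + ABT rats lay above the Dox median and 5 lay above all Dox rats. The gene fell in Dox against Veh by 0.82 on the log2 scale (SE 0.25, limma p = 0.00323, adjusted p = 0.257). It rose in Dox + ABT against Dox by 1.08 ± 0.27, a 2.11-fold difference (limma p = 0.000394, adjusted p = 0.128). Dox + ABT differed from Veh by 0.26 with a 95% interval of -0.26 to 0.78.

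Without Dox rats 1 and 2 the log2 difference of Dox from Veh was -0.65 (limma p = 0.0242) and that of Dox + ABT from Dox was 0.91 (limma p = 0.00364), so the second stayed under the threshold. In the first and second kinds of library, Dox differed from Veh by -1.09 (p = 0.00904) and -0.56 (p = 0.122). Between groups, most markers of fibroblasts and meninges moved in the same direction as Aldh1a2, though to different degrees. Col1a1 averaged 39.9 in Veh and 37.3 in Dox, and Slc6a13 averaged 47.9 and 48.6. Within Veh, rats 1 and 2 had the lowest Aldh1a2 values, 17.6 and 15.9, and the highest Lum values, 36.3 and 37.3. Of the 6 genes of the fibroblast and meninges list that passed the filter, 5 were below 0 in Dox against Veh. There 2 were called, Col3a1 at -1.40 and Lum at -0.90, where 1.85% of all genes were called lower. All 6 were above 0 in Dox + ABT against Dox. The same 2 were called, at 1.62 and 0.77, where 1.71% of all genes were called higher. Without Dox rats 1 and 2 the values were -1.18 and -0.77 and then 1.40 and 0.64. The summed level of the list ran from 213 to 444 in Veh, 211 to 327 in Dox and 250 to 673 in Dox + ABT. Of 4 markers of choroid plexus and ependyma, 3 were below 0 in Dox against Veh with none called. In Dox + ABT against Dox 3 were above 0 and 1 was called higher, beside the same 1.71% of all genes. Their sum ran from 18.0 to 136 in Veh, 24.6 to 164 in Dox and 32.9 to 355 in Dox + ABT. The part of these cells in the Aldh1a2 result was not tested.

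**Figure D3:**
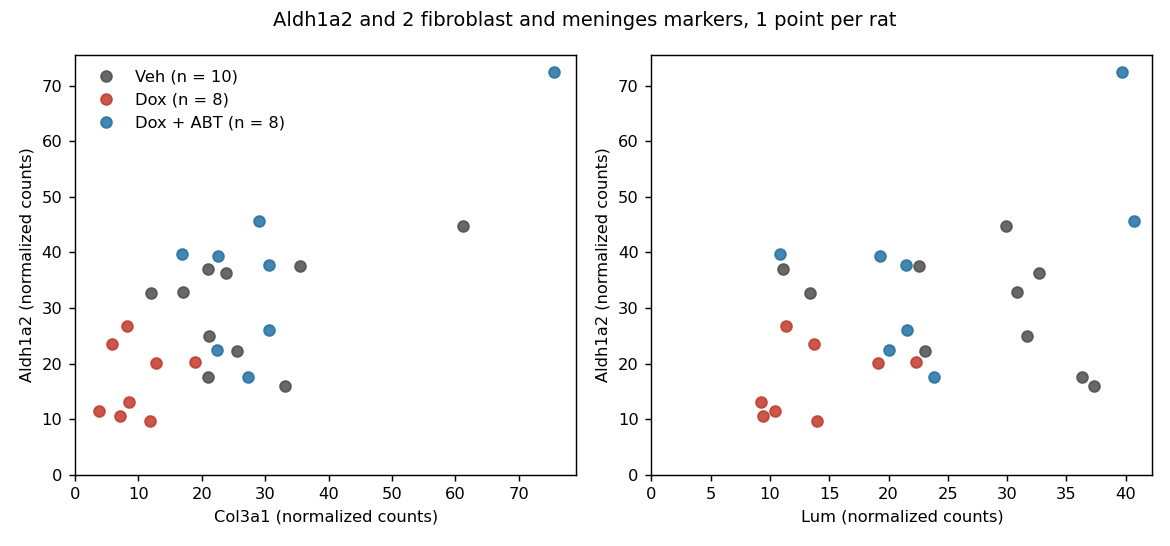
Aldh1a2 plotted against the fibroblast and meninges markers Col3a1 and Lum, in normalized counts, with 1 point for each of the 10 Veh, 8 Dox and 8 Dox + ABT rats. These 2 markers are the called ones of the 6 tested. The Dox rats lie at the lower left, with at most 18.8 for Col3a1, 22.3 for Lum and 26.7 for Aldh1a2, and 1 Dox + ABT rat has the highest Aldh1a2 value, 72.4.

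Aldh1a1, which oxidizes retinaldehyde and other aldehydes, was more abundant, at 555 ± 84 (Veh), 465 ± 79 (Dox) and 494 ± 69 (Dox + ABT). It was not called, and its log2 difference of Dox from Veh was -0.26 (limma p = 0.0221).

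Cyp3a9 (ENSRNOG00000046643), a P450 of the subfamily that oxidizes steroids and many drugs, was the 1 Cyp gene called in a comparison with Dox. Its values ran from 5.95 to 25.6 in Veh with a median of 9.84, from 3.22 to 17.7 in Dox with a median of 10.3, and from 13 to 25.5 in Dox + ABT with a median of 16.1. All 8 Dox + ABT rats lay above the Dox median and 3 lay above all Dox rats, and they stayed within the Veh range. The gene rose in Dox + ABT against Dox by 0.93 ± 0.31 (limma p = 0.00499, adjusted p = 0.205). At this level the call rested on single rats: without Dox rat 10 or 13 the difference was 0.80 (p = 0.0146) and 0.76 (p = 0.0157), and without Dox + ABT rat 3 or 6 it was 0.86 in both cases (p = 0.0118 and 0.0120).

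Dox rats 1 and 2 stood apart in more members than these. In 14 of 56 members (25%) both rats lay above the other 6 Dox rats, and in 3 (5.36%) both lay below. Over all tested genes the shares were 13.3% and 11.6%. Besides Sult1a1 and Sult5a1, the high members included Ugt1a6, which glucuronidates planar phenols, at 242 and 330 against 86.6 to 152 in the other Dox rats, and Sult2b1 at 229 and 264 against 101 to 167. Gsto2, an omega-class transferase that reduces dehydroascorbate, had 129 and 104 against 32.1 to 77.7, and Cyp4f4, a fatty acid hydroxylase, had 210 and 230 against 63.8 to 154. The low members were Ephx2, the soluble epoxide hydrolase that turns epoxy fatty acids into diols, at 106 and 108 against 131 to 243, Cyp2t1 at 25.8 and 26.1 against 54.2 to 127, and Cyp2r1, a vitamin D 25-hydroxylase, at 3.79 and 4.69 against 5.14 to 18.6.

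Both rats belonged to the first kind of library. Their summed markers of choroid plexus and ependyma were 164 and 111 normalized counts against 24.6 to 81.5 in the other Dox rats. Those of endothelium were 1660 and 1553 against 2216 to 3249, and those of liver were 65.4 and 81.7 against 30.9 to 55.1. Those of granule neurons, at 10637 and 10280, lay within 9517 to 12985. The sums of red cell markers, at 19229 and 19409, also lay within those of the other Dox rats, 2415 to 90336. The part of these markers in the results was not tested. Without both rats, 1 of 56 members was called in Dox against Veh and 2 in Dox + ABT against Dox, and the calls over all genes were 181 in place of 448 and 463 in place of 629.

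**Figure D4:**
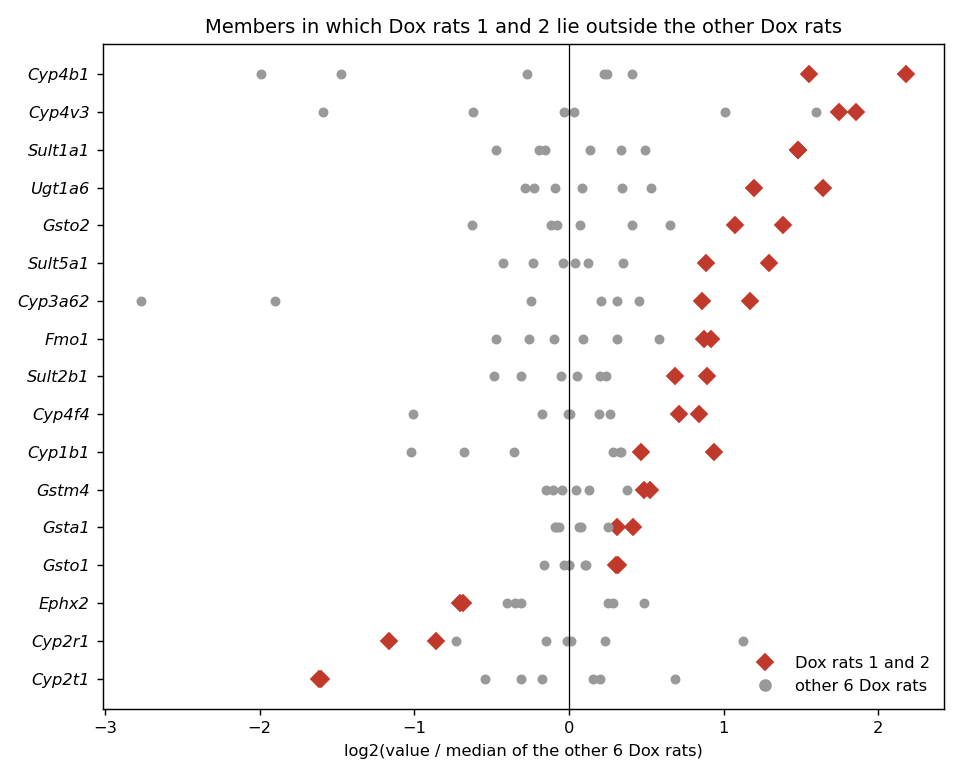
Members in which Dox rats 1 and 2 (red) both lay above or both lay below the other 6 Dox rats (gray), each value as its log2 ratio to the median of those 6. The 14 members at the top have both red points on the right and the 3 at the bottom have both on the left; the members were chosen for this pattern after their values were seen.

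Of the other members near the threshold in Dox against Veh, Ephx2 ran from 131 to 358 in Veh with a median of 219, from 106 to 243 in Dox with a median of 138 and from 136 to 270 in Dox + ABT with a median of 165. Its log2 difference of Dox from Veh was -0.48 ± 0.18 (limma p = 0.0129), and 3 of 8 Dox rats lay below all Veh rats. Without Dox rats 1 and 2 the difference was -0.31 (limma p = 0.108), and in the first and second kinds of library it was -0.53 (limma p = 0.00557, under the threshold) and -0.13 (p = 0.485). For Ugt1a6 the difference was 0.48 (p = 0.0311) with all rats and 0.14 (p = 0.406) without the 2 rats, and for the mu-class Gstm4 it was 0.24 (p = 0.0323) and 0.12 (p = 0.246). Reads of Ugt1a6 may be shared with other genes of its locus, which use the same last exons, and those of the mu-class Gst, Cyp2d and Cyp4f genes with their close copies.

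The 4 members called in Dox + ABT against Veh were all lower and none was called in the other comparisons. Ephx1 (ENSRNOG00000003515), the microsomal epoxide hydrolase of drug metabolism, ran from 304 to 712 in Veh with a median of 495 and from 321 to 476 in Dox + ABT with a median of 369. Cyp4f1 (ENSRNOG00000004786), an omega-hydroxylase of fatty acids and leukotrienes, ran from 81.5 to 222 with a median of 161 and from 79.5 to 141 with a median of 97.9. All 8 Dox + ABT rats lay below the Veh median for each, and the ranges overlapped.

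Cyp2d4 (ENSRNOG00000032261) ran from 278 to 471 in Veh with a median of 373 and from 253 to 371 in Dox + ABT with a median of 296. Gstm7 (ENSRNOG00000018937), the most abundant glutathione transferase by these counts, ran from 2434 to 5104 with a median of 4128 and from 2500 to 3684 with a median of 3108. The ranges again overlapped, with 2 Dox + ABT rats below all Veh rats for Cyp2d4 and none for Gstm7. The log2 differences were -0.35 ± 0.12 for Ephx1, -0.32 ± 0.11 for Cyp2d4, -0.53 ± 0.19 for Cyp4f1 and -0.33 ± 0.12 for Gstm7, with limma p-values of 0.00668 to 0.00912 and adjusted p-values of 0.118 to 0.123. Leaving out 1 rat ended the call in 10 of 18 fits for Ephx1, 9 for Cyp2d4, 11 for Cyp4f1 and 13 for Gstm7, and Gstm7 also lost it in 7 of 14 alternative fits.

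Some cell type markers were called lower in the same comparison. Of 6 microglia markers 6 were below 0 and 1 was called lower, of 7 astrocyte markers 4 and 1, and of 5 granule neuron markers 3 and 1, where 3.95% of all genes were called lower. Their sums ran in Veh and Dox + ABT from 3186 to 5582 and 2884 to 4896 for microglia, from 40255 to 61567 and 38543 to 56044 for astrocytes, and from 9219 to 13689 and 8683 to 11421 for granule neurons. The part of these cells in the 4 results was not tested.

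These 4 differences were smaller in fits with the kind of library, of which Veh had 6 and Dox + ABT 1 of the second. As a kind is relative to its group's mean, these fits cannot show whether the groups differ in their libraries. Within groups, the second kind was higher than the first by 0.33 for Ephx1, 0.16 for Cyp2d4, 0.69 for Cyp4f1 and 0.41 for Gstm7 on the log2 scale. With the kind of library added to the model as a covariate, the differences of Dox + ABT from Veh were -0.20, -0.24, -0.21 and -0.13, and among the 7 Dox + ABT and 4 Veh rats of the first kind they were -0.03, -0.16, -0.03 and -0.09. None of the 56 members was called in either fit (2 passed an unadjusted limma p of 0.05 in each). The second kind could not be fitted alone, as it held 1 Dox + ABT rat.

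**Figure D5:**
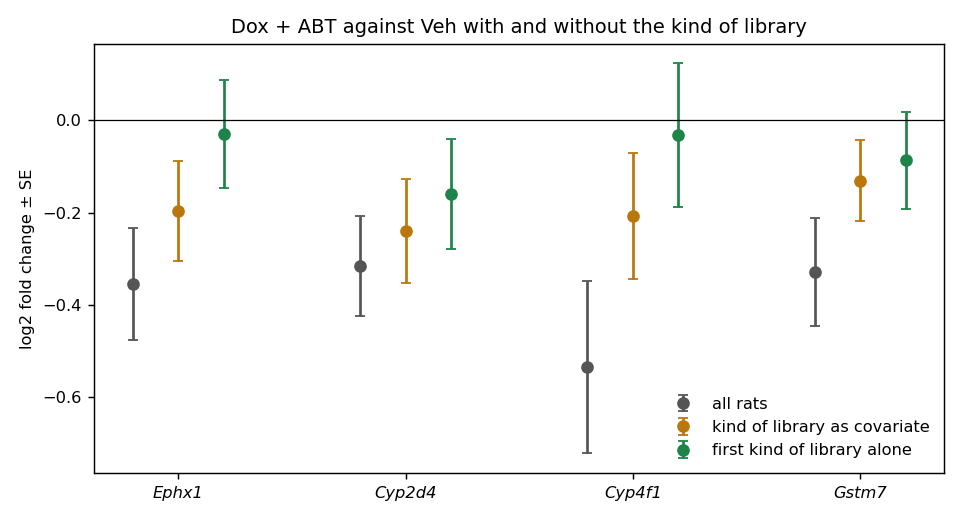
Log2 fold change ± SE of Ephx1, Cyp2d4, Cyp4f1 and Gstm7 in Dox + ABT against Veh, with all rats (gray), after adjustment for library kind (orange) and in the 4 Veh and 7 Dox + ABT rats of the first kind alone (green). The gray points lie between -0.53 and -0.32 and the green points between -0.16 and -0.03.

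The direction of the members as a set differed between the kinds of library too. In Dox against Veh, 35 of 56 members were below 0 with a median of -0.09, against 48.9% of all genes below 0 and a median of 0.01. In the first kind 22 members were below 0 and in the second kind 39 were, and after adjustment for the kind 36 were, with a median of -0.06. In Dox + ABT against Veh, 31 of 56 were below 0 in all rats, 25 after that adjustment and 18 in the first kind alone. Between the kinds themselves, 36 members (64.3%) were higher in the second kind within groups, against 50.9% of all genes, with medians of 0.17 and 0.01. No direction is therefore given for the set.

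Among the P450s, 13 of 21 were below 0 in Dox against Veh, none was called (0 at an unadjusted limma p under 0.05), and the median was -0.13. In the first kind of library 10 of 21 were below 0 and in the second 15 were, with medians of 0.07 and -0.22, and after adjustment 16 were. The fatty acid hydroxylases Cyp2u1 and Cyp4x1, both expressed in brain, differed by 0.03 and 0.26 in Dox and by 0.34 (limma p = 0.0209) and 0.46 (p = 0.0314) in Dox + ABT, each against Veh. Both were lower in the second kind of library within groups, by -0.40 and -0.75, and in Dox + ABT against Veh they were 0.15 and 0.11 after adjustment for the kind and 0.13 and 0.07 in the first kind alone. Cyp2j10, a member of the epoxygenase subfamily of arachidonic acid, differed by -0.31 in Dox (p = 0.0650), and Cyp4f6, second to Cyp2d4 among the Cyp genes by the mean over all rats though not within Veh or Dox, had means of 134 ± 22, 137 ± 37 and 142 ± 31 in Veh, Dox and Dox + ABT. Cyp4v3, with a mean just above the filter, had 4.5 ± 3.22, 7.87 ± 5.49 and 7.89 ± 2.84. It passed the filter through the groups in which it is high, so its differences are given without a test.

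Among the glutathione transferases, 10 of 16 were below 0 in Dox against Veh with a median of -0.05 and none was called (3 passed an unadjusted limma p of 0.05). This direction was not shared by the kinds of library: 4 of 16 were below 0 in the first, with a median of 0.19, and 11 in the second, with a median of -0.21, and after adjustment 8 were. Gstm5 and Gstt3 differed by -0.32 and -0.30 (limma p = 0.0397 and 0.0384) in all rats and by -0.21 and -0.20 after adjustment. In the first kind alone they differed by -0.09 and -0.23. Gstp1, the pi-class enzyme, and Gsta1, an alpha-class enzyme, had means of 1043 ± 255 and 1484 ± 214 in Veh and 943 ± 231 and 1340 ± 184 in Dox. Gsta6 averaged 152 ± 38 (Veh), 187 ± 83 (Dox) and 123 ± 24 (Dox + ABT), with a difference of -0.49 in Dox + ABT against Dox (limma p = 0.0346) and of -0.28 in the first kind alone.

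The quinone reductases Nqo1, a target of Nrf2, and Nqo2 were not called. Nqo1 averaged 138 ± 22 (Veh), 130 ± 18 (Dox) and 137 ± 19 (Dox + ABT). Its log2 difference of Dox from Veh was -0.09 with a 95% interval of -0.31 to 0.14. Ephx4 had means of 371 ± 62, 362 ± 45 and 363 ± 32. The flavin monooxygenases Fmo1, Fmo2, Fmo4 and Fmo5, which oxygenate nitrogen and sulfur, and the carboxylesterase Ces5a all had group means under 30. None was called, and the largest difference was that of Fmo4 in Dox + ABT against Veh, 0.72 ± 0.32 (limma p = 0.0350).

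The genes that regulate and serve these enzymes were described from lists. Of 10 regulators tested, 0 were called in Dox against Veh (1 passed an unadjusted limma p of 0.05, Nr1i3, the receptor CAR, at -0.27), 4 were called in Dox + ABT against Veh and 2 in Dox + ABT against Dox, where 7.84% and 4.03% of all genes were called. Chosen after the values were seen, these were the aryl hydrocarbon receptor Ahr (0.60) and its partner Arnt (0.46), which were higher in Dox + ABT than in Veh, the Nrf2 inhibitor Keap1 (-0.31), which was lower, and Rxra, the partner of several nuclear receptors, which was lower than in Veh (-0.65) and than in Dox (-0.53). Nr1i3 was higher in Dox + ABT than in Dox (0.40, and 0.29 with limma p = 0.0289 without Dox rats 1 and 2). Rxra ran from 296 to 590 in Veh, 326 to 469 in Dox and 166 to 314 in Dox + ABT, so the Dox + ABT rats all lay below the Dox rats. After adjustment for the kind of library, Rxra kept its call against Veh (-0.50, limma p = 0.000259) and Ahr, Arnt and Keap1 did not (limma p = 0.0607, 0.0480 and 0.0439).

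Beside the next lists stand the shares of all genes called higher and lower. These were 1.02% and 1.85% in Dox against Veh and 3.89% and 3.95% in Dox + ABT against Veh. In Dox + ABT against Dox they were 1.71% and 2.32%. Of 8 electron partners of the P450s, 1 was called, Por, the reductase that feeds the microsomal enzymes. Its difference was -0.34 in Dox + ABT against Veh (-0.19 and limma p = 0.0144 after adjustment for library kind). Of 8 other P450s, Cyp51, the lanosterol demethylase of cholesterol synthesis, and Cyp7b1, which hydroxylates oxysterols, were lower in Dox than in Veh at -0.46 and -0.31. Without Dox rats 1 and 2 these were -0.37 (limma p = 0.000486) and -0.17 (limma p = 0.0771). Cyp11a1, the side-chain cleavage enzyme of steroid synthesis, was higher in Dox + ABT than in Veh at 0.89 (0.75 and limma p = 0.0216 after that adjustment). Of 11 genes of glutathione supply, 1 was called, the cystine transporter Slc7a11, which was lower in Dox (-0.45) and higher in Dox + ABT than in Dox (0.36). Without the same 2 rats the values were -0.29 (limma p = 0.00817) and 0.20 (limma p = 0.0783). Of 10 genes of conjugation cofactors and hydrolases, Ugdh, which makes UDP-glucuronic acid, was higher in Dox + ABT than in Dox (0.27, and 0.23 with limma p = 0.0342 without those rats), and Slc35b2, which carries the sulfate donor into the Golgi, was lower in Dox + ABT than in Veh (-0.34, limma p = 0.0645 after that adjustment) and than in Dox (-0.35). Of 14 other phase I and II enzymes, none was called in any comparison, and the smallest limma p in Dox against Veh was that of Cbr4 (0.31, p = 0.0107). The other genes of these lists with the smallest p in Dox against Veh were Mafk (0.28, limma p = 0.0726), Fdxr (-0.36, p = 0.0512), Pgrmc1 (-0.15, p = 0.0518), Ggt1 (-0.52, p = 0.0677), Ugp2 (-0.29, p = 0.0291) and Maob (-0.29, p = 0.0212), none of which was called.

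Among 8 drug transporters, 3 were called lower in Dox against Veh, where 1.85% of all genes were called lower: Slco1a4 (-0.96), Slco1c1 (-0.74) and Abcg2 (-0.62), which are carriers of the blood-brain barrier. Slco1a4 ran from 272 to 759 in Veh, 64.5 to 394 in Dox and 292 to 461 in Dox + ABT, and Slco1c1 from 549 to 1199, 180 to 676 and 594 to 734. Both rose in Dox + ABT against Dox, by 0.91 and 0.65. Without Dox rats 1 and 2, Slco1c1 kept its call in Dox against Veh (-0.38, limma p = 0.00445), Slco1a4 (-0.47, limma p = 0.0103) and Abcg2 (-0.37, limma p = 0.0640) did not, and the rises of Slco1a4 and Slco1c1 in Dox + ABT against Dox became 0.41 and 0.28 (limma p = 0.0266 and 0.0361). In Dox + ABT against Veh, where 3.89% of all genes were called higher, 1 transporter was called, Abcc5 (0.51). It was 0.22 after adjustment for library kind (limma p = 0.0355). Of the 6 endothelial markers tested, 2 were called lower in Dox against Veh, Slco1a4 itself and Itm2a, with 3 of 6 below 0, and the summed level of the list was 2490 ± 1028 in Veh and 2449 ± 615 in Dox. Some markers of glia and mural cells were called lower in Dox too, beside the same 1.85% of all genes. Of 7 astrocyte markers 4 were below 0 in Dox against Veh and 3 were called lower, and their summed level ran from 40255 to 61567 in Veh and 34706 to 43893 in Dox. Of 6 microglia markers 5 were below 0 and 3 were called lower, with sums of 3186 to 5582 and 2881 to 4577. Of 7 oligodendrocyte markers all were below 0 and 1 was called lower, with sums of 40744 to 114974 and 44881 to 69575. Of 6 mural cell markers 3 were below 0 and 1 was called lower, with sums of 688 to 1604 and 840 to 1065. In Dox + ABT against Dox, 2 of the 6 endothelial markers were called higher, again Slco1a4 and Itm2a, with 3 of 6 above 0. Over all genes, 1.71% were called higher there. In that comparison 1 astrocyte marker and 1 oligodendrocyte marker were called higher, with 4 of 7 and 6 of 7 above 0. No microglia or mural cell marker was called, with 3 of 6 and 4 of 6 above 0. The part of these cells in the transporter results, and in the differences of members between Dox and Veh, was not tested.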

How the data were processed

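Poly(A) RNA from the DG of 26 rats was sequenced on an Ion Proton instrument. The authors aligned the reads to rn6 with STAR 2.5.3a in Partek Flow and counted them, and the deposited signal, which has more than 1 line for some genes, is these counts after the authors' Median Ratio normalization. Raw counts were not used here, so the authors' count test (DESeq2) was replaced by limma 3.58.1 in R 4.3.3 (a linear model per gene, two-sided moderated tests, eBayes with trend = TRUE) on log2(value + 1), which understates changes of low genes. Of 24012 rows, those that shared an Ensembl gene ID were added up (21 members have several rows, up to 10), genes that averaged at least 5 over all rats entered 1 fit of 3 groups, with Benjamini-Hochberg adjustment over 15595 genes. Gene names were taken from the deposited table, and every column was mapped to a sample by its label.

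Low values of genes with 1 row were whole multiples of 1 read, within a tolerance of 0.01, for 72.9% to 78.1% of values below 10 reads, too few to recover counts; the value of 1 read gave the estimated reads per library.

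Members and gene lists were chosen with earlier results of these data known. The rule for named genes took each called member, in each family the 2 with the highest mean and the 1 with the smallest p in each comparison, the 2 members on either side of the filter, and 2 genes of each pathway list; other list genes and the members in which Dox rats 1 and 2 stood apart were chosen after their values were seen. The kinds of library were found from deviations from the group means, for genes averaging at least 20, by splitting the scores on principal component 1 into 2 clusters. In simulated data for Dox against Veh with 15595 genes, 87.5% of 200 genes changed by 1 on the log2 scale were recovered at p under 0.01 and 1.06% of the unchanged genes were called. Promoters and gene positions came from RefSeq (GRCr8), which is another build than that of the values. Plots used matplotlib 3.10.9 under Python 3.11.15.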

Additional observations from a re-analysis of the deposited data

Results flagged for a closer look

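In groups of 8 or 10 rats, the highest or lowest value of a named member lay apart from the rest by Dixon's criterion in 6 of 81 groups checked, over 27 members; chance flags about 1 in 20 groups. Cyp2j10 was 205 in Veh rat 12 against 153 in the next rat. Ephx2 and Gstm1 were highest in Dox + ABT rat 4, at 270 against 195 and 3196 against 2663, and this rat had the only library of the second kind in its group. Nqo2 was 101 in Dox rat 7 against 64.5 in the next, and 42.4 in Dox + ABT rat 1, below 61.4 in the next lowest. Sult4a1 was 7949 in Dox rat 14 against 6209. The causes were not tested.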

How the results depend on the processing

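The counts of called members in Dox against Veh (2), Dox + ABT against Veh (4) and Dox + ABT against Dox (4) stayed within 1.5 times under pseudocounts of 0.5 and 5, no filter, a filter at a mean of 20, robust eBayes, eBayes without a trend, trimmed-mean rescaling, quantile normalization and the most abundant row of each gene. With arrayWeights the first 2 counts were 11 and 17, with 20.2% and 34% of all genes called, and in the 2 compared groups alone the second was 2. After adjustment for the kind of library and in the first kind alone, the second count was 0, with 1.37% and 1.1% of all genes called, and with the adjustment the counts in Dox against Veh and Dox + ABT against Dox were 3 and 5 (2.7% and 4.76%), the 5 with Sult1c2a, which is given without a test. In the first and second kinds alone the first count was 4 and 1 (4.76% and 3.57% of all genes). Leaving out both Dox rats 1 and 2, chosen after seeing the data, gave 1 in Dox against Veh and 2 in Dox + ABT against Dox (1.16% and 2.97%).

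Leaving out 1 rat at a time gave 2 to 6 members in Dox against Veh (6 without Veh rat 11 or Dox rat 7, with 4.53% and 4.24% of all genes), 0 to 7 in Dox + ABT against Veh and 2 to 5 in Dox + ABT against Dox (2 without Dox + ABT rat 6). In Dox + ABT against Veh the count was 0 without Veh rat 1, 3, 9 or 12 or Dox + ABT rat 5 (4.46% to 5.77% of all genes), 1 without Veh rat 2 or Dox + ABT rat 2, 3, 6 or 11, 2 without Veh rat 4 or Dox + ABT rat 1 or 12, and 7 without Veh rat 11 (13.7%). Sult1a1 in Dox against Veh kept its call in all 16 alternatives and all 18 fits without 1 rat, and Aldh1a2 in Dox + ABT against Dox in all 15 and all 16. Aldh1a2 in Dox against Veh lost its call in 4 of 16 alternatives, Sult1a1 in Dox + ABT against Dox in 4 of 15, and none of the called members changed sign in any setting.

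With the replicate number as a replicate block the counts were 6, 3 and 4, with 4.91%, 7.57% and 2.58% of all genes called, Aldh1a2 in Dox against Veh was -0.53 (limma p = 0.0309) and Cyp3a9 in Dox + ABT against Dox was 0.46 (limma p = 0.200). Same numbers name different rats. Over 16 pairs of same-numbered rats the correlations of deviations ran from -0.22 to 0.44 with 6 over 0.1. Pairs with different numbers were not compared, so these values cannot show whether same-numbered rats share more than the number. The causes of these differences were not tested. The depth limits members near the filter, whose values rest on few reads.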
